A study of Mus musculus with 2 samples.

Results

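The 10 genes described here encode 6 proteins of the mesothelial surface and envelope (Upk1b, Upk3b, Msln, Muc16, Lrrn4 and Scel) and 4 keratins (Krt8, Krt18, Krt19 and Krt14), of 28692 genes in the count tables. They were taken by name, and all 10 were found in both libraries. Unique molecular identifiers (UMIs), each marking 1 captured mRNA molecule, were counted in barcodes with at least 8000 UMIs and at most 20% mitochondrial UMIs, called cells below. The study dissected the base of the heart of C57Bl6 mouse pups aged 3 days, male and female, into a dorsal domain (sinoatrial node, cardiac ganglia and pulmonary veins) and a ventral domain (the proximal aorta, the pulmonary artery and outflow tract base). Hearts of 15 pups were pooled, the 2 cell suspensions were cultured as adherent layers for 5 days and trypsinised, and each gave 1 library of 3′ single-cell RNA sequencing. No allele, transgene or agent distinguished the groups. Pooling leaves 1 library per domain, so no difference below has a replicate check and none was tested: intervals are exact 95% intervals for counting error alone, and dissection, culture and library cannot be told apart from the domain.

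Mesothelium is the single layer of flattened cells that lines the pericardial, pleural and peritoneal cavities, and on the heart it is the epicardium. It arises from mesoderm but builds epithelial features: an apical surface with microvilli and a coat of glycoproteins such as mesothelin and mucin 16, cell junctions, and a cytoskeleton of simple epithelial keratins. Keratin filaments are obligate pairs of 1 type I and 1 type II protein, Krt18 or Krt19 with Krt8 in simple epithelia and Krt14 with Krt5 in the basal layer of stratified epithelia. Mesothelial cells can lose these features and become mesenchymal, in development and in culture.

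The genes lie on 8 chromosomes of the GRCm38 build, by GENCODE M21. Upk1b (chr16:38773184-38800328, minus strand), Upk3b (chr5:136038496-136046487, plus), Msln (chr17:25748613-25754378, minus), Muc16 (chr9:18495455-18674530, minus), Lrrn4 (chr2:132868305-132880891, minus) and Scel (chr14:103513342-103612797, plus) stand apart from one another. Krt8 (chr15:101996698-102004482, minus) and Krt18 (chr15:102028180-102032027, plus) are neighbours 23697 bases apart. Krt19 (chr11:100140810-100148665, minus) and Krt14 (chr11:100203162-100207548, minus) lie in the type I keratin cluster, 54496 bases apart. No gene of the count table overlaps any of them.

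RefSeq promoter windows of GRCm38.p6 (250 bases before to 50 after an annotated start) were at hand for 7 of the 10 genes. Those of 4 genes that were high in the same clusters are shown, 2 of the surface group and the Krt8 and Krt18 pair. Capitals mark matches to 5 short motifs searched on both strands: the TATA box written TATAAA, the GC box written GGGCGG, the GATA motif written AGATAA, the TEAD motif written GGAATG and the AP-1 motif written TGANTCA.
Upk3b, chr5:136038246-136038545, plus strand: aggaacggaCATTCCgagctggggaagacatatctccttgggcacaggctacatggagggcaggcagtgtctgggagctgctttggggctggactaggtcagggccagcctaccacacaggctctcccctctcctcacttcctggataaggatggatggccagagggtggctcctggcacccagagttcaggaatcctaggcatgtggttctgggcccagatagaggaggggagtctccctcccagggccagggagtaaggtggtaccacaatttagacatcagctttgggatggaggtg
Lrrn4, chr2:132880813-132881112, minus strand: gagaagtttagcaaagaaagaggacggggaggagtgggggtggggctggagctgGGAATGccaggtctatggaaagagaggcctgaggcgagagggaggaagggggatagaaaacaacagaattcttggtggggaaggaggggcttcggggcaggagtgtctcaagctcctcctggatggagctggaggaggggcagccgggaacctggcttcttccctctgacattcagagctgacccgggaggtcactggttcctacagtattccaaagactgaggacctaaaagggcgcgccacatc
Krt8, chr15:102004293-102004592, minus strand: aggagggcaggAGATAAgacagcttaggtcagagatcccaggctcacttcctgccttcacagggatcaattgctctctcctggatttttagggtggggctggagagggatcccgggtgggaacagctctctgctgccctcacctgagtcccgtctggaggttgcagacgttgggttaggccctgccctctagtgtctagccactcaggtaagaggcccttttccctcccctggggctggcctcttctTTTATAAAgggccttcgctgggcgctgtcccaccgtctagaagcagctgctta
Krt18, chr15:102027966-102028265, plus strand: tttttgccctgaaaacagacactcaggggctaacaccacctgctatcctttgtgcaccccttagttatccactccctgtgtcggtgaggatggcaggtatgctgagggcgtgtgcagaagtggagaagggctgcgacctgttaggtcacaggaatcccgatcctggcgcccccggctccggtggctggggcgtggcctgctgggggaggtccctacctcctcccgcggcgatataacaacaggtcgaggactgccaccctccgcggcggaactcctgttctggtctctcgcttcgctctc

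Both Upk3b and Lrrn4 hold 1 match to GGAATG, a motif found in 14.7% of 32851 promoter windows of that length. Among the 7 windows Krt14 was the third with a match. The Krt14 window (chr11:100205981-100206280, minus strand) lies inside the gene, whose start by GENCODE M21 is at 100207548. Its match is therefore not one in the promoter at that start. Krt8 holds TATAAA on both strands in matches that overlap each other (13.6% of all windows have one) and 1 AGATAA (11.2%). The Krt18 window holds none of the 5 motifs, and no window of the 7 holds GGGCGG (35.7% of all windows). Scel alone of the 7 has a match to TGANTCA (7.81%). A match is a description of letters, not a binding site.

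The dorsal library held 8926 cells with a median of 22774 UMIs and 4512 genes, and the ventral library 10649 cells with 21462 UMIs and 4303 genes. The libraries shared 22 cell barcodes, against about 14 if barcodes were drawn at random. Summed over all cells, levels are given as CPM, the UMIs of a gene per 1000000 UMIs, out of 229117951 dorsal and 253103590 ventral UMIs.

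The surface genes were low in the dorsal and several-fold higher in the ventral library. Upk1b, a tetraspanin of the plaques that cover bladder urothelium, stood at 5.48 CPM (5.18 to 5.79) dorsally and 46.5 CPM (45.7 to 47.4) ventrally. Upk3b, a membrane-spanning uroplakin, was at 5.34 (5.04 to 5.65) and 43.1 CPM (42.3 to 43.9). Msln, which encodes the lipid-anchored glycoprotein mesothelin, was at 35.5 (34.7 to 36.3) and 122 CPM (121 to 123). The ventral library was the higher one for each of these genes, with log2 dorsal over ventral ratios of -3.09 for Upk1b, -3.01 for Upk3b and -1.78 for Msln. Muc16, the transmembrane mucin that binds mesothelin, was rare: 27 dorsal UMIs against 319 ventral ones, 0.118 and 1.26 CPM, a log2 ratio of -3.42 (-4.04 to -2.85). Lrrn4, a leucine-rich repeat membrane protein, was at 5.57 and 31.3 CPM (-2.49), and Scel, which encodes sciellin, a precursor of the cornified envelope of stratified epithelia, at 3.40 and 28.0 CPM (-3.04).

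The keratins did not move as a block. Krt8, the type II keratin of simple epithelia, was at 8.93 CPM (8.55 to 9.33) dorsally and 23.7 CPM (23.1 to 24.3) ventrally, and its type I partner Krt18 at 9.98 (9.58 to 10.4) and 25.7 CPM (25.03 to 26.3). Their log2 ratios were -1.41 and -1.36. Krt14 was nearly missing from the dorsal library, with 44 UMIs (0.192 CPM), against 1509 UMIs (5.96 CPM) in the ventral one, a log2 ratio of -4.96 (-5.42 to -4.52). Krt19, a type I keratin that pairs with Krt8, was slightly higher in the dorsal library, at 7.02 (6.68 to 7.37) against 6.19 CPM (5.88 to 6.50), a log2 ratio of 0.18 (0.08 to 0.28).

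By a rule of 2-fold, 9 of the 10 genes were higher ventrally and 0 dorsally. Among the 15719 genes with at least 50 UMIs over both libraries, 6.03% passed that rule on the ventral and 12.8% on the dorsal side, and the median log2 ratio over those genes was 0.12. All 10 genes have 50 UMIs, so none was dropped. The median log2 ratio of the 10 was -2.75. Trimmed-mean (TMM) scaling moved every all-cell log2 ratio down by 0.117, which left Krt19 at 0.07 and both counts of genes as they were.

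**Figure D1:**
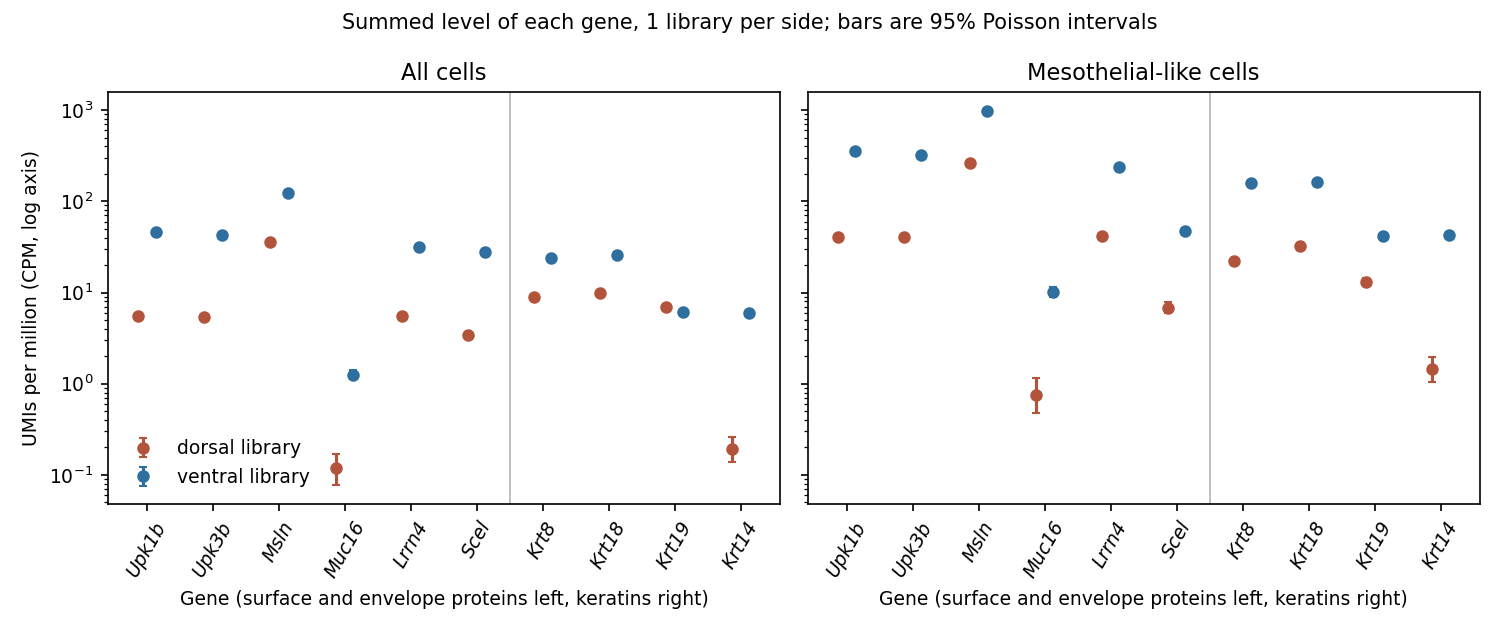
Level of each gene in CPM on a log axis, summed over all cells (left) and over mesothelial-like cells (right), for the dorsal and ventral library; points are single libraries and bars 95% Poisson intervals. Krt19 is the gene whose points nearly meet over all cells (7.02 and 6.19 CPM), and within mesothelial-like cells all 10 ventral points lie above the dorsal ones.

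Cells were clustered without the 10 genes and without any other keratin or uroplakin, so that their levels did not shape the clusters. Clusters 9 and 17 were called mesothelial-like from 10 markers that include none of the 10 genes (Wt1, Bnc1, Nkain4, Gpm6a, Rspo1, Aldh1a2, Cldn15, Pkhd1l1, Dmkn and Sulf1). Cluster 9 was almost wholly dorsal, with 1021 dorsal and 7 ventral cells, was led by Saa3, Hpgd, Adgrd1 and Calca, and carried 6 of the 10 markers at least 2-fold above other cells. Cluster 17 was almost wholly ventral, with 3 dorsal and 891 ventral cells, was led by Gpm6a, Gsta4 and Ezr, and carried 8 of the 10. The class thus held 1024 dorsal cells (11.5%) and 898 ventral cells (8.43%), with median depths of 25807.5 and 26042 UMIs, and a comparison within it is a comparison of cluster 9 with cluster 17.

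The markers that defined the class did not all differ in one direction. Wt1, the epicardial transcription factor, was at 69.5 CPM in dorsal mesothelial-like cells and 83.8 CPM in ventral ones, Aldh1a2, which makes retinoic acid, at 62.0 and 61.7 CPM, and Nkain4 at 80.6 and 63.6 CPM. Those 3 genes were within 2-fold. Of all 5903 genes at 20 CPM in mesothelial-like cells of either library, 5.32% passed 2-fold ventrally and 4.66% dorsally. Gpm6a (59.0 and 263 CPM), Rspo1 (79.2 and 237), Sulf1 (56.1 and 157) and Bnc1 (27.3 and 59.4) passed 2-fold on the ventral side, out of 7 markers at 20 CPM. Of the 3 below 20 CPM, Cldn15 (5.09 and 16.6) and Pkhd1l1 (2.62 and 7.74) were higher in ventral cells and Dmkn (12.0 and 1.44) in dorsal cells, so that 6 of the 10 markers passed 2-fold ventrally and 1 dorsally, with a median log2 ratio of -1.30.

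Within mesothelial-like cells all 10 genes passed 2-fold on the ventral side, Krt19 included. In this comparison 6.48% of the 12270 genes with 50 UMIs did so, and 7.2% passed it on the dorsal side, with a median log2 ratio of 0.04, against a median of -2.82 for the 10 genes. Upk1b was at 40.6 CPM (38.3 to 43.0) in dorsal cells and 355 CPM (348 to 362) in ventral ones, with a log2 ratio of -3.13 (-3.22 to -3.04). Upk3b was at 40.2 and 323 CPM (-3.01) and Lrrn4 at 41.9 and 237 CPM (-2.50). Msln differed least among the surface genes, at 260 CPM (254 to 266) and 973 CPM (961 to 985), a log2 ratio of -1.90. Muc16 had 22 dorsal and 262 ventral UMIs, and Scel was at 6.81 and 47.1 CPM.

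Among the keratins in these cells, Krt8 was at 22.0 CPM (20.4 to 23.8) dorsally and 160 CPM (155 to 165) ventrally, a log2 ratio of -2.86 where all cells gave -1.41. Krt18 was at 32.3 and 161 CPM (-2.32). Krt19 was at 13.0 CPM (11.7 to 14.4) and 41.3 CPM (38.9 to 43.9), a log2 ratio of -1.67 (-1.85 to -1.50), the opposite direction to its all-cell ratio. Krt14 differed most of the 10, at 1.45 (42 UMIs) and 42.6 CPM (1094 UMIs), a log2 ratio of -4.88 (-5.36 to -4.44).

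The contrast was also present within bins of cells by number of markers detected, although the bins do not make marker levels equal. The share of all genes that passed 2-fold is not given for these bins, so the counts below have no background. Of the mesothelial-like cells, 272 dorsal and 534 ventral ones had at least 4 of the 10 markers after each cell was thinned to 8000 UMIs. In those cells Msln was at 462 and 1199 CPM, Upk1b at 94.3 and 463, Krt8 at 43.7 and 198, Krt18 at 62.6 and 186, Krt19 at 15.9 and 57.3 and Krt14 at 2.75 and 60.3 CPM, and all 10 genes kept a 2-fold ventral excess. With 2 or 3 markers (511 dorsal and 300 ventral cells) 9 of 10 did, Krt19 being at 10.5 and 20.6 CPM. With 0 or 1 marker (241 and 64 cells) 7 genes did, Muc16 and Krt14 having at most 2 UMIs in either library, whereas Krt19 was at 14.8 CPM dorsally and rested on 3 ventral UMIs (1.74 CPM). Dorsal Krt19 thus stayed between 10.5 and 15.9 CPM over cells with few and with many markers, and ventral Krt19 was higher in cells with more.

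**Figure D2:**
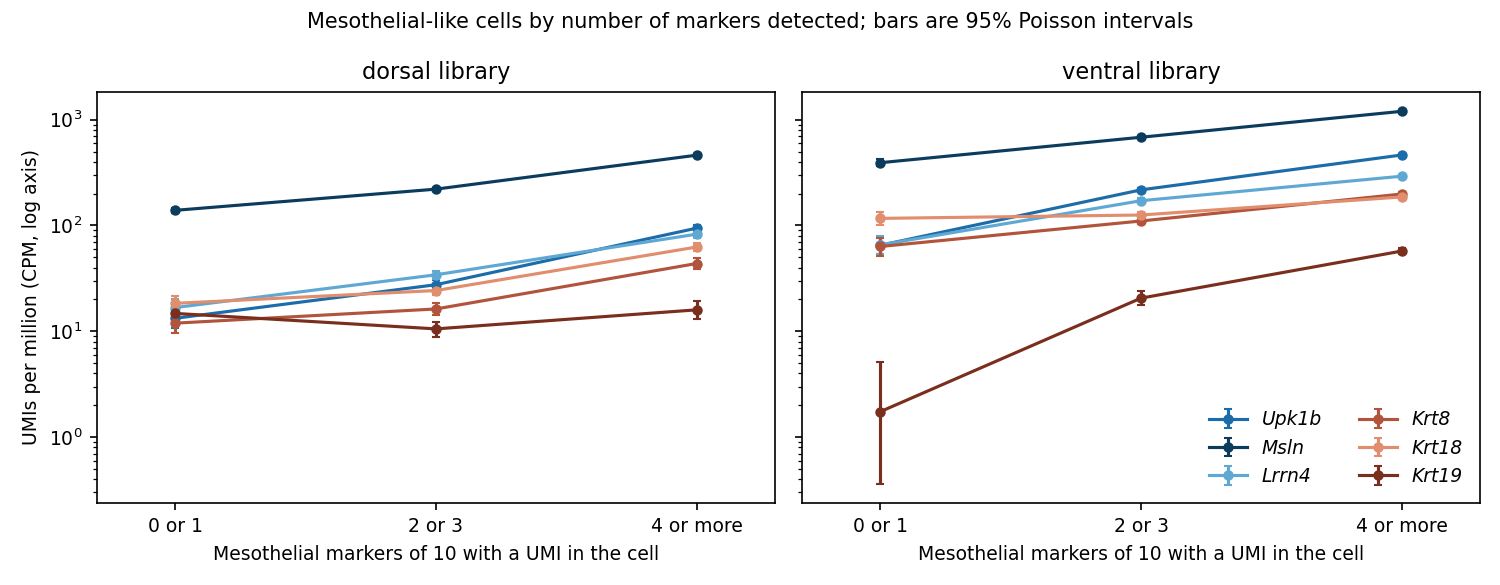
Level of 6 of the genes on a log axis in mesothelial-like cells split by how many of 10 mesothelial markers had a UMI in the thinned cell, dorsal library left and ventral library right; bars are 95% Poisson intervals. Msln goes from 139 to 462 CPM in dorsal and from 392 to 1199 CPM in ventral cells, and dorsal Krt19 stays between 10.5 and 15.9 CPM.

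Other markers moved with the same contrast. For the counts below, the shares over all genes at 20 CPM were 5.32% ventrally and 4.66% dorsally. Of the 10 smooth muscle and pericyte markers, 4 reached 20 CPM in mesothelial-like cells and all 4 were higher in ventral ones: Acta2 (276 and 3458 CPM), Tagln (294 and 2680), Lmod1 (3.06 and 21.2) and Cnn1 (4.30 and 28.2). The summed level of that list was 591 CPM in dorsal and 6213 CPM in ventral mesothelial-like cells, against 1817 and 9517 CPM in the other clusters of each library, and no marker of it was at 0. Cardiomyocyte markers summed to 196 and 887 CPM, of which Tnnt2 gave 166 and 822, and macrophage markers to 52.6 and 25.6 CPM. Fibroblast markers, the most abundant of these lists, summed to 15356 CPM in dorsal and 10134 CPM in ventral mesothelial-like cells, against 13987 and 10474 CPM in the other clusters, with 1 of 10 at 0 ventrally. Of 10 immediate early genes at 20 CPM, a group that responds to tissue dissociation, 7 passed 2-fold on the dorsal side, led by Nr4a1 (101 and 10.97 CPM), and 0 on the ventral side. The part of these differences in the contrast of the 10 genes was not tested.

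Per-cell counts gave the same picture as the sums. After thinning, Msln was detected in 40.5% (37.5 to 43.6) of dorsal and 90.2% (88.1 to 92.1) of ventral mesothelial-like cells, and in 51.3% and 96.1% without thinning. Upk1b was detected in 17.2% and 74.5%, Upk3b in 21.3% and 74.2% and Lrrn4 in 22.1% and 69.2%. Krt8 was detected in 13.4% and 44.8%, Krt18 in 16.0% and 50.8%, Krt19 in 6.93% and 13.8% and Krt14 in 1.17% and 13.3%. Macrophage-like cells, which should lack these genes, gave the level that free RNA can reach: Msln in 1.53% of 196 dorsal and 5.34% of 131 ventral cells, and Krt8 in 0 of both, which allows up to 1.53% and 2.29%. Their median depths before thinning were 43244 and 27578 UMIs. Macrophage-like cells are too few to set a level for the rarest genes, so fibroblast-like cells were used. Of 6207 dorsal ones, 1 had Krt14 after thinning (0.0161%, up to 0.0897) and 0 had Muc16, which allows up to 0.0483%, at a median depth of 23147 UMIs. Dorsal mesothelial-like shares were above those, at 1.17% (0.607 to 2.04) for Krt14 and 0.586% (0.215 to 1.27) for Muc16, against 6.90% for Muc16 ventrally. Barcodes of at most 100 UMIs, which hold free RNA, had Krt14 at 0 of 3695308 UMIs in the dorsal library and at 6.30 CPM in the ventral one.

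Many dorsal mesothelial-like cells carried no surface transcript at this depth. In the thinned cells 416 of 1024 dorsal ones (40.6%, 37.6 to 43.7) had no UMI of any of the 6 surface genes, against 30 of 898 ventral ones (3.34%, 2.27 to 4.73). The median cell held 1 surface UMI dorsally and 13 ventrally, and 98 dorsal (9.57%) and 572 ventral cells (63.7%) held 10 or more. No UMI of Krt8, Krt18 or Krt19 was found in 70.3% of dorsal and 33.5% of ventral cells. A median of 1 gene of the 10 was detected per dorsal cell and 5 per ventral cell, yet 114 dorsal cells (11.1%) had 4 or more, so the dorsal distribution reached into the ventral one.

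Surface and keratin transcripts were held by overlapping cells. A surface UMI without a simple keratin UMI was seen in 35.5% of dorsal and 31.1% of ventral cells. The reverse was seen in 5.86% and 0.891%, and both in 23.8% and 65.6%. Only 3.34% of ventral cells had no surface UMI, so the ventral share with both mostly shows how common surface UMIs were. Across cells the summed surface and simple keratin UMIs (log scale, thinned) had a Pearson correlation of 0.40 in 1024 dorsal and 0.42 in 898 ventral cells, and Upk1b with Upk3b 0.50 and 0.56. Krt8 with Krt18 gave 0.24 in dorsal and 0.50 in ventral cells. Cells of 1 library share that library, and thinning gave them equal depth.

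**Figure D3:**
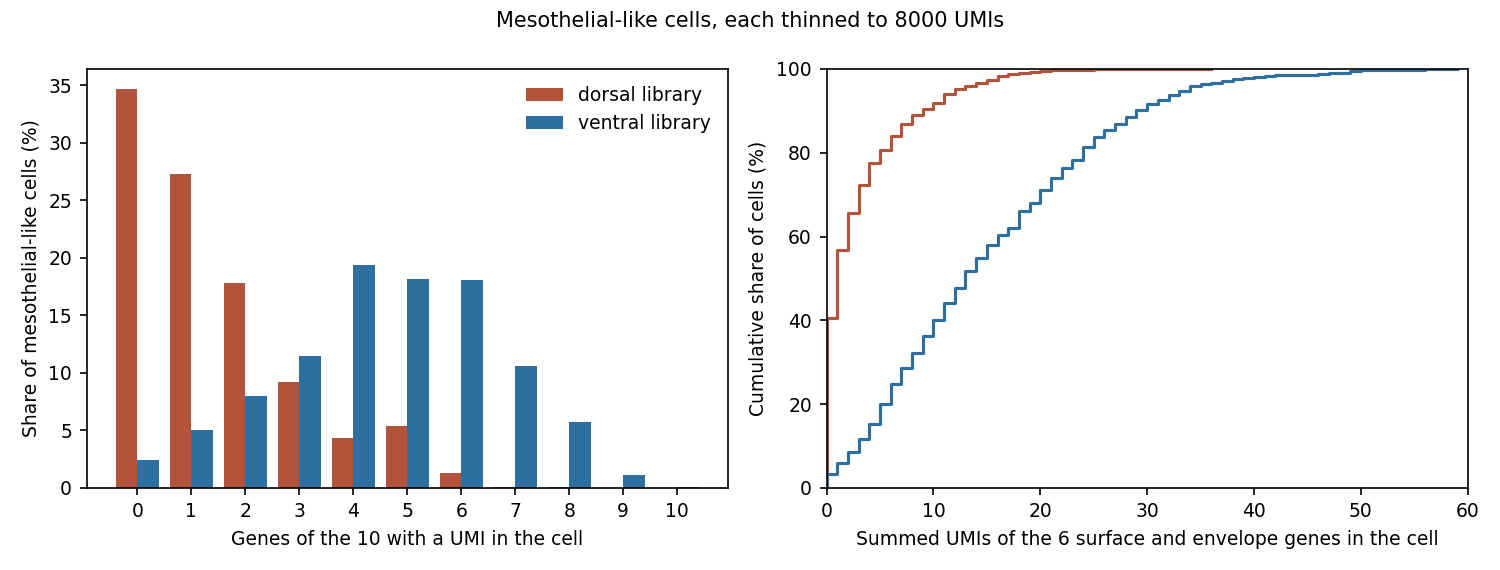
Left, share of mesothelial-like cells by the number of the 10 genes with a UMI, and right, cumulative share of cells by summed UMIs of the 6 surface and envelope genes, in cells thinned to 8000 UMIs. The dorsal curve starts at 40.6% of cells with no surface UMI and the ventral one at 3.34%.

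Krt14 and Krt19 were carried by a minority of cells. In ventral mesothelial-like cells the 10 highest cells held 35.1% of thinned Krt14 UMIs and 23.0% of Krt19 UMIs, against 4.79% of Msln and 10.5% of Krt8 UMIs. The 119 ventral cells with Krt14 were also those rich in the other genes: 73.9% had Krt8 (65.1 to 81.6) against 40.3% (36.8 to 43.8) of the cells without Krt14, 96.6% and 71.1% had Upk1b, and 33.6% and 10.8% had Krt19. Scel was an exception, in 16.0% of cells with and 26.4% of cells without Krt14. Cells with Krt19 more often had Msln and Upk1b in both libraries, and in the ventral library more often had Krt8 too. Of the 124 ventral cells with Krt19, 70.2% (61.3 to 78.0) had Krt8, against 40.7% (37.2 to 44.3) of the others, and of the 71 dorsal cells with it 14.1% (6.97 to 24.4), against 13.3% (11.2 to 15.7) of the others, intervals that overlap. Of the same 71 dorsal cells 54.9% (42.7 to 66.8) had Msln, against 39.5% (36.3 to 42.6) of the others, and 29.6% (19.3 to 41.6) had Upk1b, against 16.3% (13.98 to 18.8). The difference between the libraries was not tested.

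Of the partners known from other epithelia, Krt5, Upk2 and Upk3a were at or near 0, and Krt7 was not. Krt5, the type II partner of Krt14 in stratified epithelia, had 0 UMIs in all cells of both libraries, which allows up to 0.0131 CPM dorsally and 0.0119 CPM ventrally. Krt7, the other type II keratin of simple epithelia, was at 12.8 CPM in dorsal mesothelial-like cells and 140 CPM in ventral ones, a log2 ratio of -3.46, and was 1 of 13 further keratins on a list to reach 20 CPM there. Upk2 and Upk3a, the uroplakins that with Upk1a and Upk1b build bladder plaques, had 1 dorsal UMI each and 0 ventral ones, and Upk1a 76 in each. Krt23, singled out after its values were seen, was a keratin with the opposite pattern: 413 UMIs (14.2 CPM) in dorsal and 9 UMIs (0.350 CPM) in ventral ones, a log2 ratio of 5.34.

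Where the transcripts lay in each library differed between the genes. In the dorsal library mesothelial-like cells, 11.5% of all cells, held 93.9% of Upk1b UMIs, 95.4% of Upk3b, 92.8% of Msln, 95.4% of Lrrn4, 81.5% of Muc16 and 95.5% of Krt14. The same cells held 31.3% of Krt8, 41.1% of Krt18, 23.4% of Krt19 and 25.4% of Scel UMIs. In the ventral library the class held 76.0% to 82.1% of the UMIs of each surface gene other than Scel and 63.8% to 72.5% of those of the 4 keratins. Most of the ventral remainder of each gene but Scel and Krt18 was in cluster 11, led by the division genes Ube2c, Cdc20 and Cenpe, which was left without a name by a rule on cell cycle genes set after the clusters were seen, and which made up 1.95% of dorsal and 1.73% of ventral cells.

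Within cluster 11 the libraries were far apart. Its 184 ventral cells held the genes at levels near those of cluster 17, with Upk1b at 352 CPM (338 to 367), Lrrn4 at 246, Krt8 at 160, Krt18 at 111, Krt19 at 44.6 and Krt14 at 47.2 CPM, and Msln at 741 against 974 CPM in cluster 17. Its 174 dorsal cells had Upk1b at 0.758, Krt8 at 1.67 and Msln at 15.5 CPM, and no UMI of Krt14 or Muc16. The ventral cells of this cluster thus carried the surface and keratin transcripts, and its dorsal cells had little of them. Cluster 11 also held 89 dorsal cells with none of the 10 mesothelial markers, and the matching ventral count is not given. Its dorsal Msln and Upk1b were far below those of dorsal cluster 9 (258 and 39.5 CPM). Whether its dorsal and ventral cells were of a like kind was not tested.

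Against a baseline that included cluster 10 (described below), the surface genes other than Scel, and Krt14, had larger folds than Krt8, Krt18 and Krt19. Cluster 10 held 1335 of the 1395 dorsal and 688 of the 827 ventral Krt8 UMIs in that baseline. For Krt18 it held 924 of 1329 and 684 of 1614, and for Krt19 704 of 1207 and 2 of 209. Cluster 10 thus made up most of the Krt8 baseline in both libraries, so the Krt8 folds below mainly reflect its few cells. Folds without cluster 10 were not computed, so this order is not shown to hold without it. For Krt8 no order against the surface genes can be drawn from these folds. Against all other clusters (cluster 11 left out), Lrrn4 was 198-fold higher in dorsal and 237-fold higher in ventral mesothelial-like cells, Upk3b 165-fold and 112-fold, Upk1b 111-fold and 233-fold, and Msln 105-fold and 216-fold. Krt14 was 140-fold and 90.3-fold higher, from 2 dorsal UMIs in the other clusters, and Muc16 29.3-fold and 205-fold, from 5. Krt8 was 3.05-fold higher in dorsal and 42.7-fold in ventral ones, Krt19 2.08-fold and 43.7-fold, and Krt18 4.71-fold and 22.1-fold. Scel was 2.35-fold and 1.87-fold higher, so it passed 2-fold in the dorsal library and missed it in the ventral one. All 10 genes passed 2-fold in the dorsal library, where 5.66% of 14763 genes did, and 9 in the ventral library, where 8.59% of 14291 did. These folds are descriptions, since the clusters were built from the same cells.

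**Figure D4:**
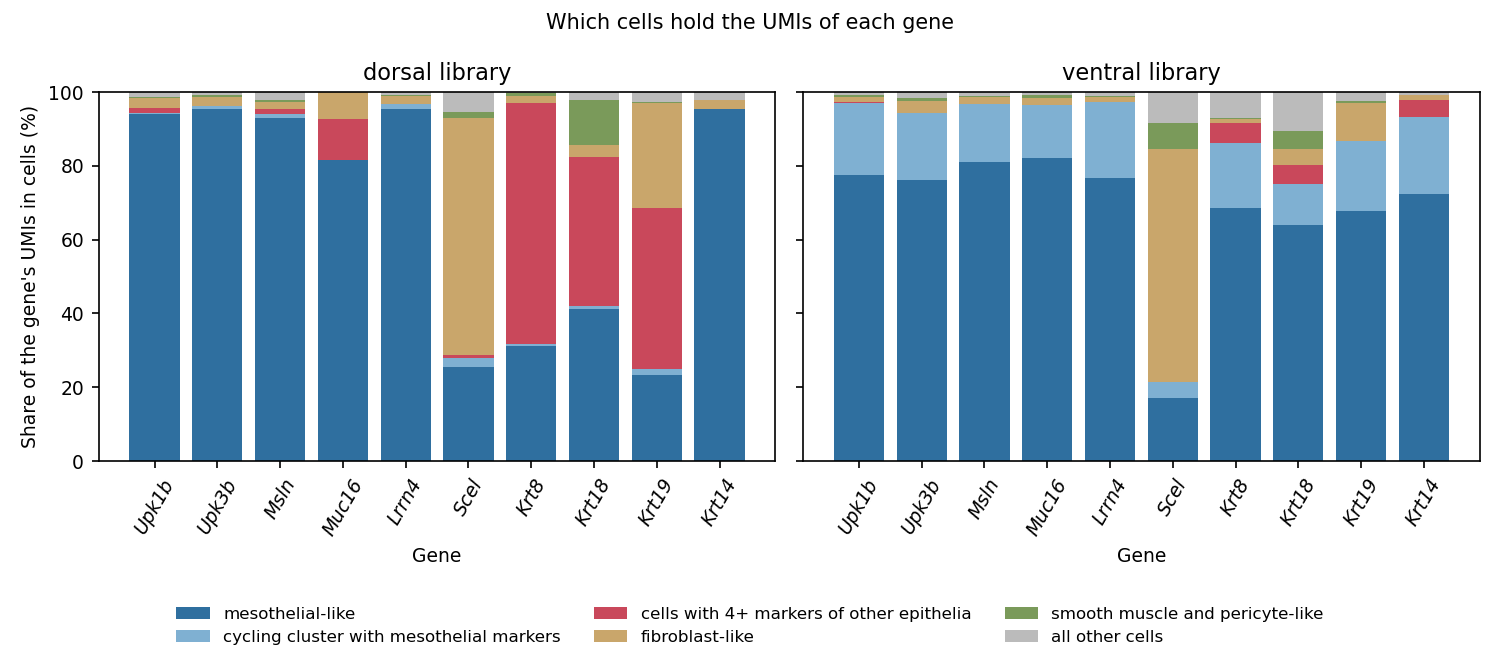
Share of each gene's UMIs held by groups of cells in the dorsal (left) and ventral (right) library, stacked to 100%. Mesothelial-like cells hold nearly all dorsal UMIs of Upk1b, Upk3b, Msln, Lrrn4 and Krt14, fibroblast-like cells hold 64.4% and 63.3% of Scel, and 5 dorsal cells with markers of other epithelia hold 65.2% of Krt8.

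A large share of dorsal Krt8, Krt18 and Krt19 UMIs was held by very few cells. Of the dorsal library, 5 cells had at least 4 of 14 markers of other epithelia after thinning (a gate added after the data were seen), and 2 ventral cells did. They carried Epcam, Sfn, Perp, Esrp1 and Cldn7 in 7 of 7 cells and Cdh1 and Rab25 in 6. Nkx2-1, Foxa2 and Grhl2 were found in 3, Trp63 and Krt15 in 2, and Krt5 and Foxn1 in 0. Of the 10 mesothelial markers, Wt1, Nkain4, Gpm6a, Aldh1a2 and Pkhd1l1 had 0 UMIs in the 7 cells. Dmkn had 26 UMIs in 3 cells. Cldn15 had 4 UMIs, Bnc1 had 2, and Rspo1 and Sulf1 had 1 each, every one in 1 cell. The 5 dorsal cells held 1335 of 2046 Krt8 UMIs (65.2%), 924 of 2287 Krt18 UMIs (40.4%) and 703 of 1608 Krt19 UMIs (43.7%), with a median of 6744 CPM of Krt8 per cell. They held 0 UMIs of Upk3b, Lrrn4 and Krt14, while all 5 had Msln. The 2 ventral cells held 5.39% of Krt8, 5.07% of Krt18 and 4.71% of Krt14 UMIs and none of Krt19. No dorsal and 1 ventral cell had exactly 3 of the 14 markers.

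Without these 7 cells the all-cell ratio of Krt19 turned round, from 0.18 to -0.65, and Krt8 went from -1.41 to -2.85 and Krt18 from -1.36 to -2.03. Leaving out instead the whole cluster 10 (11 dorsal and 10 ventral cells) gave -0.65 for Krt19 and -2.75 for Krt8. Cluster 10 was led by Car3, Wfdc2, Scd1, Cfd, Scgb3a1, Sfn and Epcam, genes of fat cells and of glandular epithelium together. The marker lists named it other epithelium, from 7 of 14 markers, a name that does not cover its fat cell genes. Its 10 ventral cells held 11.5% of ventral Krt8 and 10.5% of Krt18 UMIs. The 6 surface genes and Krt14 kept their all-cell direction and their 2-fold difference without them. In mesothelial-like cells, which hold none of the 7, the ratio of Krt19 was -0.18 at Leiden resolution 0.5 and -0.16 when the clustering used the 10 genes, and in both settings all 7 cells had joined the class.

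Krt18 was found without Krt8 in contractile cells. In smooth muscle and pericyte-like cells Krt18 was at 25.9 CPM (22.9 to 29.1) dorsally and 11.8 CPM (10.5 to 13.1) ventrally, where Krt8 was at 1.29 and 0.555 CPM. The class lay in clusters 4 and 14 dorsally and mostly in 16 and 23 ventrally, so that these sums compare different clusters. Cluster 14, led by Des and Actg2, reached 38.6 CPM in dorsal cells. Cluster 4, led by Cxcl15 and Rgs5, was at 22.6 CPM (19.4 to 26.1) in 469 dorsal cells and 51.8 CPM (37.3 to 70.0) in 46 ventral cells, the opposite order to the class sums. Ventral cluster 23 was at 18.4 CPM and cluster 16 at 0.349 CPM. In cardiomyocyte-like cells Krt18 was at 16.3 CPM (9.98 to 25.2) in 48 dorsal and 153 CPM (125 to 184) in 32 ventral cells, with 1 Krt8 UMI in each. Of the cells with a Krt18 UMI after thinning, 31.1% in dorsal and 61.0% in ventral mesothelial-like cells also had Krt8, against 1 of 62 dorsal and 0 of 74 ventral smooth muscle and pericyte-like cells, and 0 of 6 and 0 of 15 cardiomyocyte-like cells. Krt18 in those cells was therefore counted where its type II partner was near or at 0.

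Scel was a gene of the ventral library at large rather than of mesothelial-like cells. Fibroblast-like cells held 64.4% of dorsal and 63.3% of ventral Scel UMIs, at 3.16 CPM (2.89 to 3.45) and 28.5 CPM (27.7 to 29.3), a log2 ratio of -3.17. Dorsal fibroblast-like cells lay almost wholly in clusters 0, 2, 3, 7 and 13 and ventral ones in 1, 15, 19 and 22, so that ratios within this class compare different clusters. Ventral cluster 15, led by Gpx3 and Hsd11b1, was at 41.3 CPM, near the 47.3 CPM of ventral mesothelial-like cluster 17 and the 45.5 CPM of the ventral cells of cluster 11, and smooth muscle and pericyte-like cells were at 1.11 and 18.7 CPM. Among dorsal clusters of 20 cells or more, the highest Scel levels were in clusters 20 (14.4 CPM in 26 cells), 0 (7.92 CPM) and 9 (6.83 CPM). The ventral excess of Scel was therefore seen in mesothelial-like, fibroblast-like and smooth muscle and pericyte-like cells. Scel also correlated little with the other genes among ventral mesothelial-like cells, with 0.09 for Msln and 0.01 for Krt19.

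Dorsal Krt19 had a share in fibroblast-like cells, which held 28.5% of its UMIs, at 2.89 CPM (2.63 to 3.16) against 1.04 CPM (0.884 to 1.21) in the ventral ones, with a log2 ratio of 1.48. Dorsal cluster 0, led by Sele and Fbln1, was at 5.35 CPM and cluster 3, led by Tnfsf8 and Cxcl13, at 2.92 CPM. Krt8 in the same clusters was at 0.211 and 0.226 CPM. In those clusters Krt19 was found with its type II partner near 0.

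Over the 31 units of a library and a cluster with at least 20 cells (17 dorsal and 14 ventral), the order of levels was alike for most of the genes. Ventral clusters 17 and 11 were the top units for Upk1b, Upk3b, Msln, Muc16, Lrrn4, Krt8, Krt19 and Krt14, and dorsal cluster 9 was the third. Levels in clusters 17 and 11 did not differ beyond their counting intervals for Upk1b (356 and 352 CPM), Krt8 (161 and 160) and Krt14 (42.7 and 47.2), while Msln was higher in cluster 17. For Krt18 the ventral cardiomyocyte-like cluster 6 (153 CPM) came between clusters 17 (161) and 11 (111). The median unit had 3.31 CPM of Msln, 1.17 of Upk1b, 0.542 of Krt8 and 0 of Krt14 and Muc16. Dorsal cluster 21, of 38 cells with skeletal muscle genes, had Msln at 79.3 and Upk1b at 8.42 CPM, with Lrrn4 at 0.

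**Figure D5:**
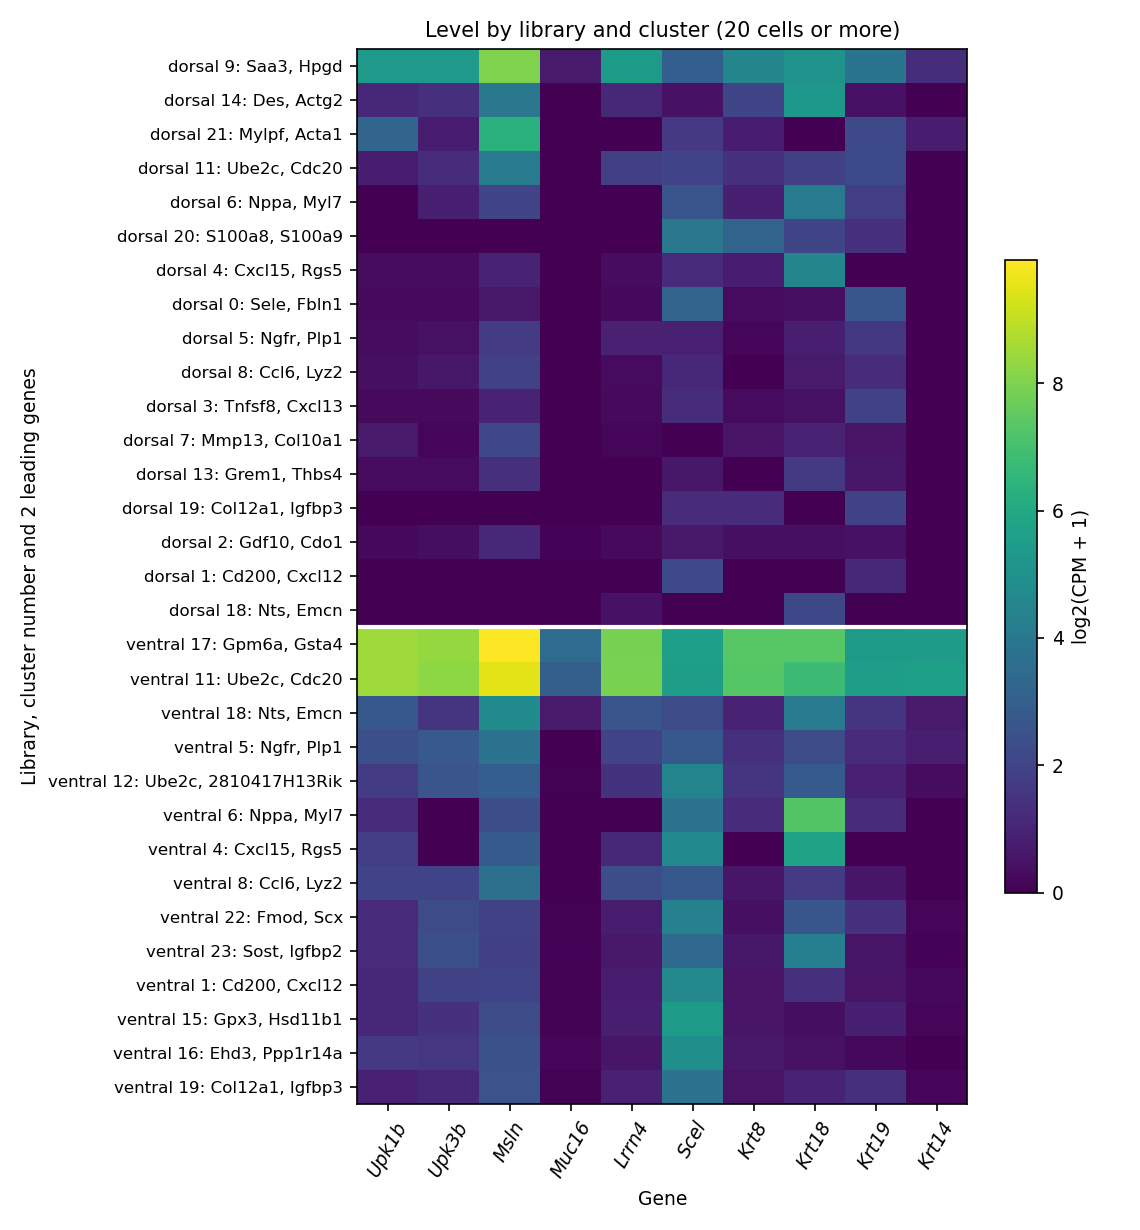
Level of each gene as log2(CPM + 1) by library and cluster for clusters with at least 20 cells in that library, dorsal units above the white line and ventral units below, each named by its cluster number and 2 leading genes. Clusters 17 and 11 of the ventral library and 9 of the dorsal library stand out, Scel is spread over the ventral clusters, and Krt18 is high in clusters 6, 4 and 14.

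The genes whose levels over those 31 units were most like the mean of the 6 surface genes were, of 9179 compared by Pearson correlation of log2(CPM + 5), Bnc1 (0.97), Prokr2 (0.96), Crb2 (0.95), Cgn (0.95) and Tm4sf5 (0.95), then Krt7, Folr1, Tmem151a, Ifi27l2b and Ptprq. Bnc1 encodes the zinc finger protein basonuclin 1, Crb2 an apical polarity protein and Cgn the tight junction protein cingulin. For the mean of Krt8, Krt18 and Krt19 they were Prokr2 (0.92), Crb2 (0.92), Bnc1 (0.91), Cgn (0.90) and Stk26 (0.90), then Ifi27l2b, Tm4sf5, Gsta4, Ptprq and Gpm6a. Crb2 was the most like Krt14 (0.97), followed by Angptl7, Ifi27l2b, Cgn and Ptprq. In mesothelial-like cells Angptl7 was at 3.96 CPM dorsally and 74.6 CPM ventrally, Folr1, which encodes a folate receptor, at 79.9 and 164, and Gsta4, a glutathione transferase, at 60.5 and 212 CPM. Units share a library, and no p is given.

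Genes of epithelial junctions and polarity were mostly higher in ventral mesothelial-like cells too. Of 21 measured, 6 reached 20 CPM and 4 of those passed 2-fold on the ventral and 0 on the dorsal side, with a median log2 ratio of -1.64. Over all 5903 genes at 20 CPM in this comparison, 5.32% passed it on the ventral and 4.66% on the dorsal side, and the median was -0.02. Over all cells, where 5.12% of 5821 genes did so ventrally and 4.69% dorsally, 2 of the 4 junction genes at 20 CPM passed on the ventral side and 0 on the dorsal side. With a minimum of 50 UMIs the counts were nearly even. There 7 of 20 junction genes passed on the ventral and 6 on the dorsal side, with a median log2 ratio of -0.04. Over all 15719 genes at that minimum, 6.03% passed ventrally and 12.8% dorsally, with a median of 0.12. Both junction counts were thus above the shares of all genes, and the ventral background was the lower one. Jup, which encodes plakoglobin, was at 10.4 and 59.1 CPM, Ezr, whose product ezrin ties microvilli to actin, at 105 and 520, Pkp2, a desmosomal plakophilin, at 8.19 and 29.4 and Cgn at 7.85 and 21.2 CPM. Both F11r (78.6 and 99.7 CPM) and Tjp1 (36.2 and 42.4), of tight junctions, were within 2-fold. E-cadherin (Cdh1) was at 0.0344 and 0.156 CPM and Epcam at 0.206 and 0.0778, below 20 CPM.

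Transcripts of the mesenchymal side differed in both directions, where 5.32% of all genes at 20 CPM passed 2-fold ventrally and 4.66% dorsally. Of 14 genes of epithelial to mesenchymal transition at 20 CPM, 5 passed 2-fold on the ventral side: S100a4 (12.9 and 540 CPM), Acta2, Tagln, the growth factor gene Tgfb2 (22.2 and 98.6) and the repressor gene Snai1 (12.2 and 26.1). Zeb2, another repressor of epithelial genes, was the 1 that was higher in dorsal cells (128 and 40.7 CPM), and the other 8, among them Vim and Cdh2, were within 2-fold. Acta2 and Tagln were also counted above among the smooth muscle and pericyte markers. Klf4, the single regulator of 11 to reach 20 CPM, was at 136 and 32.1 CPM. Ventral mesothelial-like cells thus had higher levels of keratins, surface genes and contractile genes together.

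Other mesothelial and epicardial genes were split, beside the same shares of 5.32% ventrally and 4.66% dorsally over all genes at 20 CPM. Of 11 secreted and surface genes of mesothelium at 20 CPM, 4 were higher in ventral cells (Cd200 at 12.1 and 51.2 CPM, the caveolar gene Cav1 at 65.8 and 277, Anxa8 at 7.98 and 29.4, Igfbp6 at 56.9 and 189) and 3 in dorsal cells (complement C3 at 1194 and 255, Slpi at 62.2 and 26.8, Igfbp5 at 28.9 and 10.8). Of 8 epicardial genes at 20 CPM, Bnc1 and Tgm2 (29.2 and 59.5 CPM) were higher in ventral and Igf2 (75.5 and 18.6) in dorsal cells. Tbx18 was at 27.1 and 29.0, and Tcf21 at 32.9 and 64.6 CPM. Of the 5 genes at 20 CPM on the list of keratin partners and linkers, Lmna (132 and 293 CPM) alone passed 2-fold. Its place on that list is not a claim that it pairs with or links keratins.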

How the data were processed

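UMI counts per gene and barcode were deposited by the authors as raw, unfiltered matrices, whole numbers with no normalization. The counts came from Cell Ranger 3.0.2 on the mm10 build, per the submitters' processing notes. Barcodes with at least 8000 UMIs and at most 20% mitochondrial UMIs were kept, which took 92.8% of dorsal and 95.6% of ventral UMIs. Cells of both libraries were clustered together with scanpy 1.11.5 (2000 variable genes, 30 components, 15 neighbours, Leiden resolution 1.0), without the 10 genes or any other keratin or uroplakin. Clusters were named from marker lists, and clusters 11, 12 and 20 were left unnamed. The naming rules that decided clusters 10 and 11 were set after the clusters were seen. Doublets were not removed: Scrublet called 0 dorsal cells, so it did not work there, and 498 ventral ones.

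Counts were summed per library, with 95% intervals that were exact Poisson for levels, conditional binomial for ratios of libraries and Clopper-Pearson for shares of cells. Intervals and the limit of 3 counts cover counting error only. For shares, each cell was thinned to 8000 UMIs. Genes were called by a 2-fold difference, counting a gene at 0 as 3 counts. The ratio steps were tested on simulated data. The 10 genes and all lists were chosen with earlier results of these data known. From each list the 4 highest and 4 lowest ratios at 20 CPM were named, with the genes most like each group. Cldn15, Pkhd1l1, Dmkn, Krt5, Krt23, Cdh1, Epcam, Vim, Cdh2, Snai1 and the other uroplakins were named after their values were seen. Gene positions are from GENCODE M21.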

Additional observations from a re-analysis of the deposited data

How the results depend on the processing

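Within mesothelial-like cells, 9 of the 10 genes stayed at least 2-fold higher on the ventral side in all 14 alternatives (cell filters, doublet scores, clustering, scaling, marker gates), and Krt19 did in 12. In the other 2, Leiden resolution 0.5 and clustering with the 10 genes, the log2 ratio was -0.18 and -0.16 for Krt19, -1.42 and -1.46 for Krt8 and -1.43 and -1.55 for Krt18, and all 7 cells with markers of other epithelia were then in the class. Over all cells, 9 genes stayed past 2-fold in all 8 alternatives. The shares of all genes that passed 2-fold are not given for the alternatives. Krt19 reversed to -0.65 without those 7 cells and to -0.65 without cluster 10, both added after the data were seen. With a minimum of 50 UMIs in place of 20 CPM, the mesothelial genes at least 2-fold higher ventrally over all cells went from 1 to 4, and the junction and polarity genes from 2 to 7, since more genes enter. The dorsal counts of these lists went from 0 to 1 and from 0 to 6, and the junction median from -0.68 to -0.04. Over all genes at 50 UMIs, 6.03% passed ventrally and 12.8% dorsally, with a median of 0.12. Within mesothelial-like cells the junction genes went from 4 to 7 ventrally and from 0 to 1 dorsally. The shares over all genes at 50 UMIs there were 6.48% and 7.2%. No paired analysis was possible because each domain has 1 library. Depth limits Muc16 and dorsal Krt14 most, at 22 and 42 UMIs in mesothelial-like cells.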
